A study of Mus musculus with 17 samples.

Results

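The Hoxa cluster genes Hoxa2, Hoxa3, Hoxa4, Hoxa5, Hoxa6, Hoxa7, Hoxa9, Hoxa10 and Hoxa11 were followed through 6 populations of blood-forming cells from mouse bone marrow. Members were taken by name: every probe other than a control whose gene name in the scanner files is one of these symbols. These 9 of the 28090 gene names on the array were read by 11 of its 41174 probes, since Hoxa3 and Hoxa4 had 2 probes each. Total RNA of female C57Bl/6 mice was labelled with Cy3 and hybridized to 17 Agilent 4x44k arrays, and animals were pooled for each replicate. The HSC subsets were Long-Term HSCs (LT-HSC, 2 arrays, 1 of them labelled as a pool of 2-3), Short-Term HSCs (ST-HSC, 3 arrays) and Multipotent Progenitors (MPP, 3 arrays). The myeloid populations were Common Myeloid Progenitors (CMP), Granulocyte-Monocyte Progenitors (GMP) and Megakaryocyte-Erythroid Progenitors (MEP), with 3 arrays each. No allele or treatment is given for any group. All marrow was depleted of cells with mature lineage antigens and enriched for c-kit before sorting by surface antigens, and cell identity therefore rests on those antigens.

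Hox genes encode transcription factors with a homeodomain, a DNA-binding fold with a recognition helix that reads the major groove. They lie in clusters in mammals, ordered along the chromosome as they are used along the body axis. In blood-forming cells the Hoxa cluster is kept active by Mll and its partners and silenced by Polycomb complexes, and its proteins bind DNA with TALE cofactors of the Pbx and Meis families. Hoxa9 is needed for the normal repopulating capacity of stem cells, and its persistent expression with Meis1 is a feature of Mll-rearranged leukaemia.

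All 11 probes lay on chromosome 6 on the minus strand (mm9, from the scanner files that name this build), from Hoxa2 at chr6:52112595-52112654 to Hoxa11 at chr6:52192107-52192166. Of the 60-base probe sequences, 2 are shown that held in an open reading frame a stretch by which Hox coding sequence is known, because they place the measured signal within the protein's functional parts. The Hoxa4 probe A_52_P638382 (chr6:52140595-52140654) has in capitals the codons of a conserved stretch of the homeodomain's first helix, and the Hoxa6 probe (chr6:52158194-52158253) has in capitals the codons of the hexapeptide, the short motif upstream of the homeodomain that contacts Pbx.
Hoxa4 probe A_52_P638382: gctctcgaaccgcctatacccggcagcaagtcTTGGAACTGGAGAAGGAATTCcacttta
Hoxa6 probe: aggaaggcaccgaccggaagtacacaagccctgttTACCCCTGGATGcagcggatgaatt
Hox genes share coding sequence, above all the homeobox, and the part of related transcripts in the signal was not tested for any of the 11 probes, Hoxa9 included.

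RefSeq promoter windows (GRCm38.p6, 250 bases before to 50 after a start) were found for 8 of the 9 genes, in 9 windows, with none for Hoxa4. The 300-base windows were searched on both strands for TGATNNAT, the letters of a joint Hox and Pbx site, TGACAG, those of a Meis site, and TTTATG, those of a Cdx or posterior Hox site. TGATNNAT was in 8.8% of all 32851 windows and in the Hoxa2 window, TGACAG was in 19.2% of all windows and in the Hoxa2 and Hoxa3 windows, and TTTATG was in 11.9% of all windows and in the Hoxa7 window. The 250 bases before the starts of Hoxa2 and Hoxa7 are shown with those letters in capitals, as the windows where matches were found among members whose levels differed between populations.
Hoxa2, chr6:52164832-52165081, minus strand: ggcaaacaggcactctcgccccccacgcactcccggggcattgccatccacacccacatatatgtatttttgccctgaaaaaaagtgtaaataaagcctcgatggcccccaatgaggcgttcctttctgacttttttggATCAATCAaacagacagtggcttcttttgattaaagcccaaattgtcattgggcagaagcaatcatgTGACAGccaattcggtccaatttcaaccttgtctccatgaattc
Hoxa7, chr6:52218574-52218823, minus strand: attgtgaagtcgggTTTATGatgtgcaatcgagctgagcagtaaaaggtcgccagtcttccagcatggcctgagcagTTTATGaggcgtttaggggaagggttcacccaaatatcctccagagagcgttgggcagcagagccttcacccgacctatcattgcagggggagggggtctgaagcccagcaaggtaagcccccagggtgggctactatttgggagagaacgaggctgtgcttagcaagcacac
The windows of Hoxa5, Hoxa6, Hoxa9, Hoxa10 and Hoxa11 held none of these 3 motifs. A match describes the letters of the window and not a bound site.

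The arrays were scanned on 4 days, grouped by calendar month into 3 runs, and only run 2, with 2 HSC subset arrays (ST-HSC and MPP) and 3 myeloid arrays, compares the HSC subsets with the myeloid populations. Run 2 spans 2 days and 2 slides, with MPP, CMP and GMP on the first and ST-HSC and MEP on the second, so its values for MPP against ST-HSC and for MEP against CMP or GMP cross days and slides. The 6 arrays of run 1 were all myeloid and the 6 of run 3 all from HSC subsets. Low signal set apart the LT-HSC array without a number, with an upper-quartile intensity of 53.1 against 243.3 to 533.8 on the others and 41.4% of spots well above background, a flag of the scanner software, against 48.2% to 70.2%. Levels are given as quantile-normalized log2 intensities, which can be compared between arrays for a probe but not between probes. The population labels were checked against marker genes: 7 of 8 probes of the HSC list (the exception was a Slamf1 probe) were higher in HSC subsets than in myeloid populations, although Kit, Ly6a, Cd34 and Flt3 encode antigens of the sort itself, all 9 probes of 6 GMP markers were lower in MEP than in GMP, and all 7 MEP markers were higher in MEP than in CMP. Cebpe of the GMP list was not found among the gene names. Against CMP, 3 of the 9 GMP marker probes were higher in GMP and none lower. Intensity summed over the brightest probe of each GMP marker overlapped between ST-HSC (324173 to 529642.1) and CMP (254140.6 to 545829.4). The same sum for MEP markers was higher in LT-HSC (37053.3 to 56266.3) than in CMP (24226.4 to 36259.5), so these markers separate some populations only in part. In sorted bulk populations, fewer expressing cells and less RNA per cell cannot be told apart.

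Over the 6 populations, 5 of the 11 probes differed by the F-test at an adjusted p under 0.05, those of Hoxa2, Hoxa5, Hoxa7, Hoxa9 and Hoxa10, against 40.6% of all probes. Their adjusted p ran from 6.95e-09 for Hoxa10, which ranked 13 of 41174 probes, to 6.03e-05 for Hoxa5. All 5 had their highest mean in MPP or, for Hoxa10, in LT-HSC, and for Hoxa5, Hoxa7 and Hoxa9 the lowest was MEP, while Hoxa2 and Hoxa10 were not well above background in GMP or MEP and have no order there. The Hoxa6 probe (adjusted p = 0.0749), both Hoxa3 probes (0.22 and 0.251), both Hoxa4 probes (0.451 and 0.141) and the Hoxa11 probe (0.373) did not pass.

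**Figure D1:**
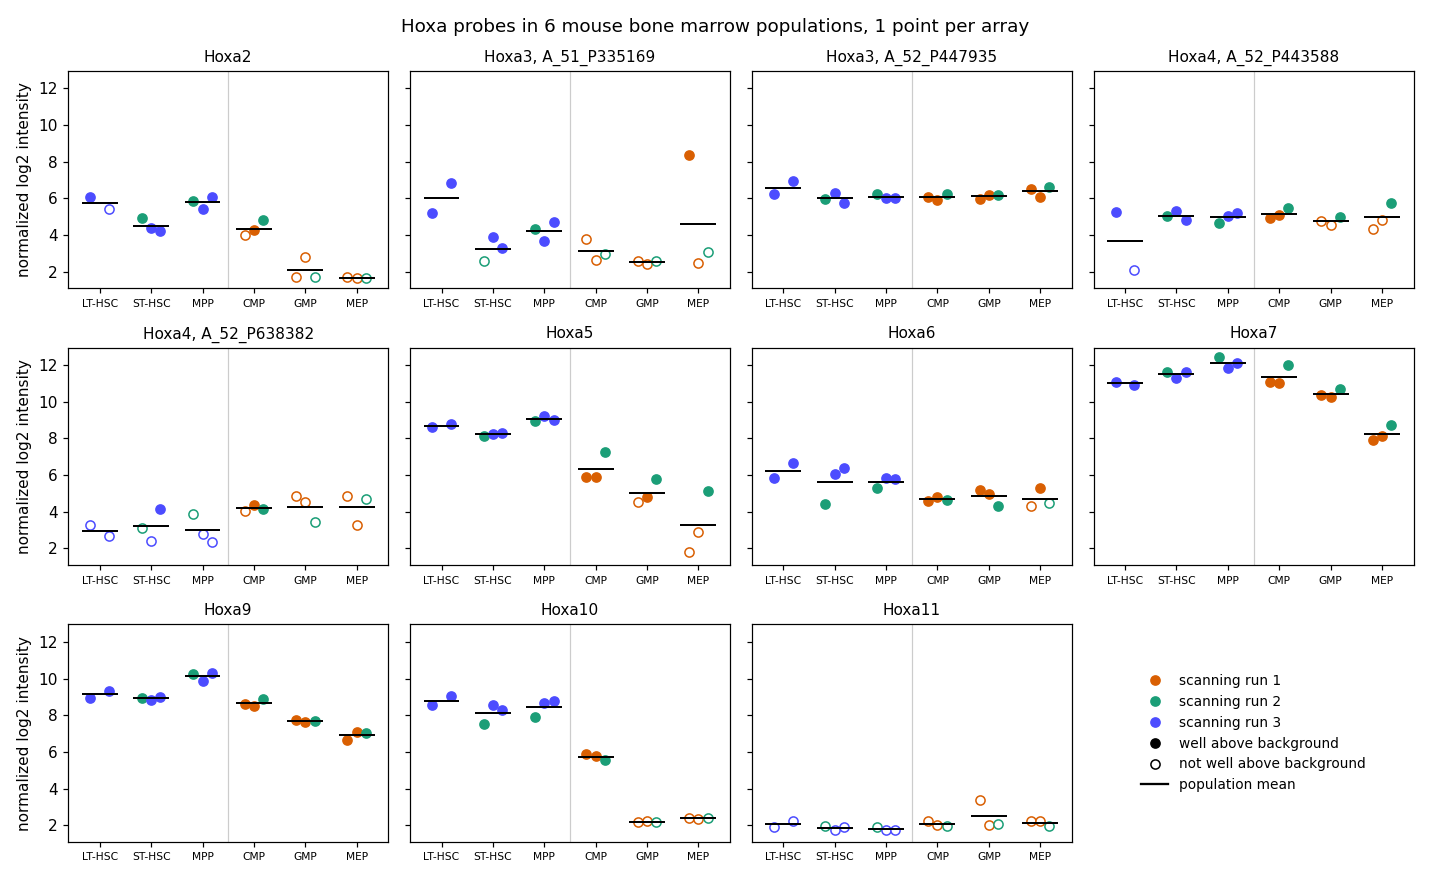
Normalized log2 intensity of each Hoxa probe on each of the 17 arrays (vertical axis) in 6 populations (horizontal axis), coloured by scanning run, with filled points well above background, open points not, and bars at population means. Hoxa10 lies between 7.54 and 9.04 on the 8 HSC subset arrays and is open on all GMP and MEP arrays, while Hoxa11 is open everywhere.

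**Figure D2:**
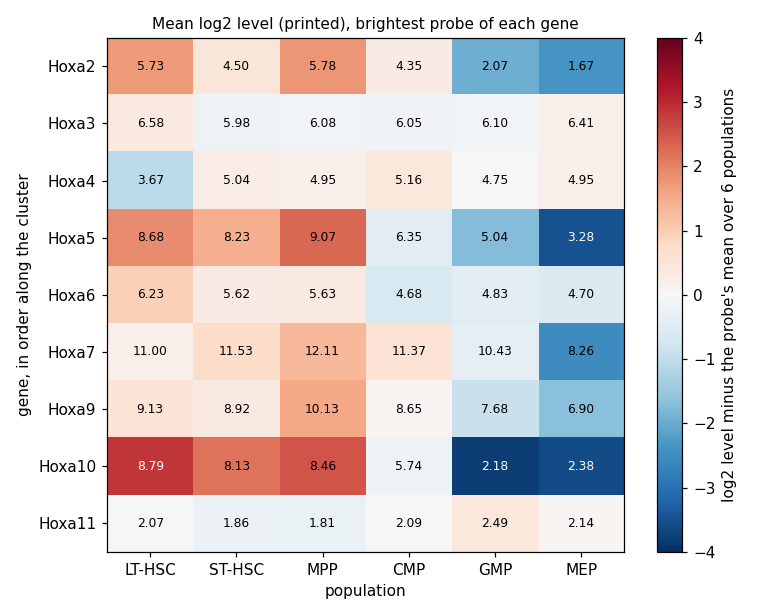
Mean log2 level of the brightest probe of each gene (printed) in each population (columns), with genes in their order along the cluster (rows) and colour giving the level minus the probe's mean over the 6 populations. Hoxa2, Hoxa5, Hoxa7, Hoxa9 and Hoxa10 run from red in HSC subsets to blue in MEP, and Hoxa3, Hoxa4 and Hoxa11 stay near white in most columns.

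Hoxa10, a posterior member of the cluster that promotes expansion of progenitors when overexpressed, was high in the HSC subsets, intermediate in CMP and not well above background in GMP or MEP. Its log2 levels were 8.55 and 9.04 for LT-HSC, 7.54, 8.56 and 8.30 for ST-HSC, 7.92, 8.69 and 8.76 for MPP, and 5.86, 5.79 and 5.55 for CMP. In GMP they were 2.16, 2.20 and 2.17, and in MEP 2.40, 2.35 and 2.38. No CMP array reached the HSC subsets and no GMP or MEP array reached CMP, while the LT-HSC, ST-HSC and MPP ranges overlapped. The HSC subsets were higher than the myeloid populations by 5.03 on the log2 scale (SE 0.16, adjusted p = 6.88e-10), with 3 of the 9 myeloid arrays well above background. Within run 2 the difference was 4.36, set in part by background signal, since the GMP and MEP arrays were not well above it. The size over all arrays depended on the processing, and was 1.90 with normexp and 2.79 with the authors' table, both called. CMP was lower than MPP, with a difference of -2.72 (SE 0.26, adjusted p = 5.57e-05), or -2.36 in the pair of arrays of run 2. In the processed signal GMP was 11.8-fold lower than CMP (log2 difference -3.56, 95% interval -4.13 to -2.99, adjusted p = 1.24e-05). MEP was 10.3-fold lower than CMP (-3.36, 95% interval -3.93 to -2.79, adjusted p = 1.56e-06). For each dim array a fold takes the higher of its own signal and the lowest signal well above background. In both runs 1 and 2 every GMP and MEP array was below every CMP array. No exact size is given for GMP or MEP against CMP within runs, because the GMP and MEP signals were not well above background. With normexp background correction and its offset, which compresses dim signals, the differences from CMP were smaller. They were -0.62 for GMP (adjusted p = 0.0471) and -0.68 for MEP (adjusted p = 0.0104). With the authors' table they were -1.14 and -1.17, so the folds above hold for the processed signal alone. The difference of CMP from MPP was -1.39 with normexp.

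Hoxa9, the member most tied to stem cell function and leukaemia, was well above background on all 17 arrays and peaked in MPP. The LT-HSC arrays gave log2 levels of 8.96 and 9.30, the ST-HSC arrays 8.94, 8.81 and 8.998, and the MPP arrays 10.24, 9.88 and 10.28. The CMP arrays gave 8.61, 8.48 and 8.86, the GMP arrays 7.73, 7.60 and 7.70, and the MEP arrays 6.64, 7.06 and 7.01. The MPP arrays were above all others, LT-HSC, ST-HSC and CMP overlapped with their neighbours in that order, and GMP and MEP lay apart below. The HSC subsets were higher than the myeloid populations by 1.65 (SE 0.10, adjusted p = 1.04e-07), and by 1.73 within run 2. MPP was higher than ST-HSC by 1.21 (SE 0.17, adjusted p = 0.00162), and by 1.29 and 1.17 within runs 2 and 3. CMP was lower than MPP, with a difference of -1.48 (SE 0.17, adjusted p = 0.000185), or -1.38 in run 2. The decline went on in both branches: GMP was lower than CMP, with a difference of -0.97 (SE 0.17, adjusted p = 0.00401), and MEP was lower than GMP, with a difference of -0.77 (SE 0.17, adjusted p = 0.00493). MEP was also below CMP, with a difference of -1.74 (SE 0.17, adjusted p = 8.06e-06). Within runs 1 and 2 these were -1.69 and -1.85 for MEP against CMP, -0.88 and -1.16 for GMP against CMP, and -0.81 and -0.69 for MEP against GMP.

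Hoxa7, which has overlapping roles with Hoxa9 in progenitors, was highest in MPP and fell sharply in MEP. Its log2 levels were 11.09 and 10.91 on the LT-HSC arrays, 11.63, 11.31 and 11.64 for ST-HSC, and 12.41, 11.81 and 12.09 for MPP. The myeloid arrays gave 11.09, 11.03 and 11.99 for CMP, 10.39, 10.23 and 10.67 for GMP, and 7.93, 8.15 and 8.71 for MEP. The MEP arrays lay apart from all others, and the CMP arrays overlapped with ST-HSC, LT-HSC and MPP. The HSC subsets were higher than the myeloid populations by 1.52 (SE 0.16, adjusted p = 1.16e-05), and by 1.56 within run 2. MEP was lower than CMP, with a difference of -3.11 (SE 0.27, adjusted p = 3.85e-06) and lower than GMP, with a difference of -2.17 (SE 0.27, adjusted p = 6.36e-05), with -3.02 and -3.28, and -2.27 and -1.96, within runs 1 and 2. Every GMP array was below every CMP array, with a difference of -0.94 that missed the threshold (adjusted p = 0.079) and passed it with scanning run as a block (adjusted p = 0.00305) or the replicate number as a block (adjusted p = 0.00656).

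Hoxa5, a regulator of lineage choice whose overexpression in human progenitors hinders the erythroid path, was high in HSC subsets and fell through CMP to MEP. Log2 levels were 8.60 and 8.76 on the LT-HSC arrays, 8.15, 8.26 and 8.27 on those of ST-HSC, and 8.97, 9.25 and 8.99 on those of MPP. They were 5.91, 5.88 and 7.27 on the CMP arrays, 4.56, 4.78 and 5.80 on the GMP arrays, and 1.82, 2.87 and 5.15 on the MEP arrays. All 8 HSC subset arrays were above all 9 myeloid arrays, and in each myeloid population the array of run 2 was the highest. The HSC subsets were higher by 3.77 (SE 0.39, adjusted p = 8.49e-06), and by 2.49 within run 2, with 6 of the 9 myeloid arrays well above background. It was 1.79 with normexp and 2.48 with the authors' table, both called. CMP was lower than MPP, with a difference of -2.72 (SE 0.65, adjusted p = 0.0178), but -1.70 within run 2, and the call was lost with scanning run as a block (adjusted p = 0.121). MEP was lower than CMP, with a difference of -3.07 (SE 0.65, adjusted p = 0.00451), with -3.55 and -2.12 within runs 1 and 2. The MEP arrays of run 1 and 1 GMP array of run 1 were not well above background, so the values of run 1 are set by background signal. With normexp the difference of MEP from CMP was -0.73 (adjusted p = 0.00717), and with the authors' table -1.19 (adjusted p = 0.00407). Every GMP array was below every CMP array, with a difference of -1.31 (SE 0.65, adjusted p = 0.476), -1.23 and -1.48 within runs 1 and 2, which passed with scanning run as a block (adjusted p = 0.0347). The MEP and GMP arrays overlapped, with a difference of -1.76 (SE 0.65, 95% interval -3.17 to -0.36, adjusted p = 0.0873), which was -2.32 in run 1 and -0.65 in run 2. It passed with scanning run as a block (adjusted p = 0.00215), with the replicate number as a block (adjusted p = 0.0348), with slide as a random block (adjusted p = 0.0206), with array weights (adjusted p = 0.00115) and without the unnumbered MEP array (-2.70, adjusted p = 0.00115). It did not pass with normexp (-0.26, adjusted p = 0.406), with the authors' table (-0.47, adjusted p = 0.292) or without the first MEP array (-1.04, adjusted p = 0.344).

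Hoxa2, a hindbrain patterning gene at the anterior end of the cluster, was dim, highest in MPP and LT-HSC, and not well above background in GMP or MEP. Its log2 levels were 6.06 and 5.40 for LT-HSC, 4.93, 4.38 and 4.19 for ST-HSC, 5.86, 5.42 and 6.05 for MPP, and 3.98, 4.26 and 4.80 for CMP. In GMP they were 1.68, 2.81 and 1.72 and in MEP 1.71, 1.67 and 1.63, which sets every array of both below every CMP array. The HSC subsets were higher than the myeloid populations by 2.64 (SE 0.20, adjusted p = 5.88e-07), with 2 of the 9 myeloid arrays well above background, although ST-HSC and CMP overlapped. Within run 2 the difference was 2.67, set in part by background signal, since the GMP and MEP arrays were not well above it. The size over all arrays depended on the processing, and was 0.43 with normexp and 0.81 with the authors' table, both called. With dim arrays taken as for Hoxa10, GMP was 4.27-fold lower than CMP and MEP 5.30-fold lower. The fitted log2 differences were -2.27 for GMP (95% interval -2.98 to -1.57, adjusted p = 0.00111) and -2.67 for MEP (95% interval -3.38 to -1.97, adjusted p = 6.12e-05). CMP was lower than MPP, with a difference of -1.43 (SE 0.33, adjusted p = 0.0143), or -1.06 within run 2, and this call was lost with scanning run as a block (adjusted p = 0.0747). The folds of GMP and MEP hold for the processed signal alone. With normexp their differences from CMP were -0.20 and -0.25 and not called (adjusted p = 0.284 and 0.0503). With the authors' table they were -0.36 (adjusted p = 0.253) and -0.56 (adjusted p = 0.0128). The difference of CMP from MPP was -0.43 with normexp and -0.74 with the authors' table.

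The Hoxa6 probe, which reads the hexapeptide, gave 4.41 to 6.64 in the HSC subsets, with a mean of 5.83, and 4.32 to 5.28 in the myeloid populations, with a mean of 4.74. The difference of 1.09 (SE 0.27) had an adjusted p of 0.00539, but was 0.36 within run 2 and was not called with scanning run as a block (0.43, adjusted p = 0.532). It was 0.39 with normexp and 0.63 with the authors' table, both called. The lowest HSC subset value, 4.41, was the ST-HSC array of run 2.

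Hoxa3 and Hoxa4, anterior genes, each had a pair of probes, with a Pearson r over the 17 arrays of 0.61 between the Hoxa3 probes and 0.15 between the Hoxa4 probes. The Hoxa3 probe A_52_P447935 was well above background on all 17 arrays and stayed between 5.74 and 6.95, with a difference of 0.03 between HSC subsets and myeloid populations (95% interval -0.25 to 0.32), but it was called higher in HSC subsets with 75th percentile scaling (0.46, adjusted p = 0.0382), which also moved the median of all probes to 0.313. The Hoxa3 probe A_51_P335169 gave 5.22 and 6.81 for LT-HSC, 2.57 to 3.91 for ST-HSC, 3.68 to 4.68 for MPP, 2.61 to 3.75 for CMP and 2.42 to 2.59 for GMP, but 8.33, 2.47 and 3.04 in MEP, where only the first array was well above background. The HSC subsets differed from the myeloid populations by 1.08 (adjusted p = 0.225). Without that MEP array the probe was called higher in HSC subsets (adjusted p = 0.000538), but no other myeloid array was well above background, so the size of that difference was not measured. The Hoxa4 probe A_52_P443588 stayed between 4.33 and 5.71 except on the dim LT-HSC array, where it was 2.09. Its difference between HSC subsets and myeloid populations was -0.40 (adjusted p = 0.4), which passed without the LT-HSC array 2-3 (-0.925, adjusted p = 0.003), when the dim array alone stood for LT-HSC, and was 0.131 without the dim array. The Hoxa4 probe A_52_P638382, within the homeobox, was well above background on 3 of 17 arrays and was lower in HSC subsets, with a difference of -1.18 (SE 0.33, adjusted p = 0.0113), but the difference was -0.60 within run 2 and was not called with scanning run as a block (-0.58, adjusted p = 0.652). With so few arrays above background the size was not measured: it was -0.154 with normexp (adjusted p = 0.0216), and the call was lost with the authors' table (-0.220, adjusted p = 0.108), 75th percentile scaling (-0.233, adjusted p = 0.656) and slide as a random block (adjusted p = 0.101).

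Hoxa11, a posterior gene of limb and uterus development, was not well above background on any array. Its values ran from 1.73 to 3.40, and no difference was detectable at these signals.

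Counted by comparison, 6 of 11 probes were higher in the HSC subsets than in the myeloid populations and 1 was lower, against 18.2% and 23.1% of all probes. With scanning run as a block 5 probes were called rather than 7, as Hoxa6 and Hoxa4 A_52_P638382 were lost. None was called by limma between ST-HSC and LT-HSC, where 0.852% of all probes were called higher and 2.49% lower in ST-HSC. Although 4 probes (Hoxa2, both Hoxa3 probes and Hoxa10) had an unadjusted p under 0.05, the share of all probes at that looser threshold was not counted. Without the LT-HSC array 2-3, 2 probes were called, but the dim array then stood alone for LT-HSC and was assumed to vary like the other groups. Without the first MEP array 1 probe was called. For Hoxa9 the difference was -0.21 (95% interval -0.62 to 0.19), and for Hoxa3 A_51_P335169 it was -2.77 (-5.48 to -0.05). From ST-HSC to MPP, 1 probe rose, Hoxa9, against 1.15% of all probes higher and 0.874% lower, and without GMP 2 there were 2. From MPP to CMP, 4 probes fell and none rose, against 5.39% of all probes lower and 6.75% higher, and 2 were called without MPP 3, CMP 1 or CMP 2 and with scanning run as a block. From CMP to GMP, 3 fell and none rose, against 2.93% and 1.84%, and from CMP to MEP, 5 fell and none rose, against 9.43% and 7.24%. Between MEP and GMP, 2 were lower in MEP and none higher, against 9.56% and 7.81%. These comparisons share populations and are not independent of each other.

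**Figure D3:**
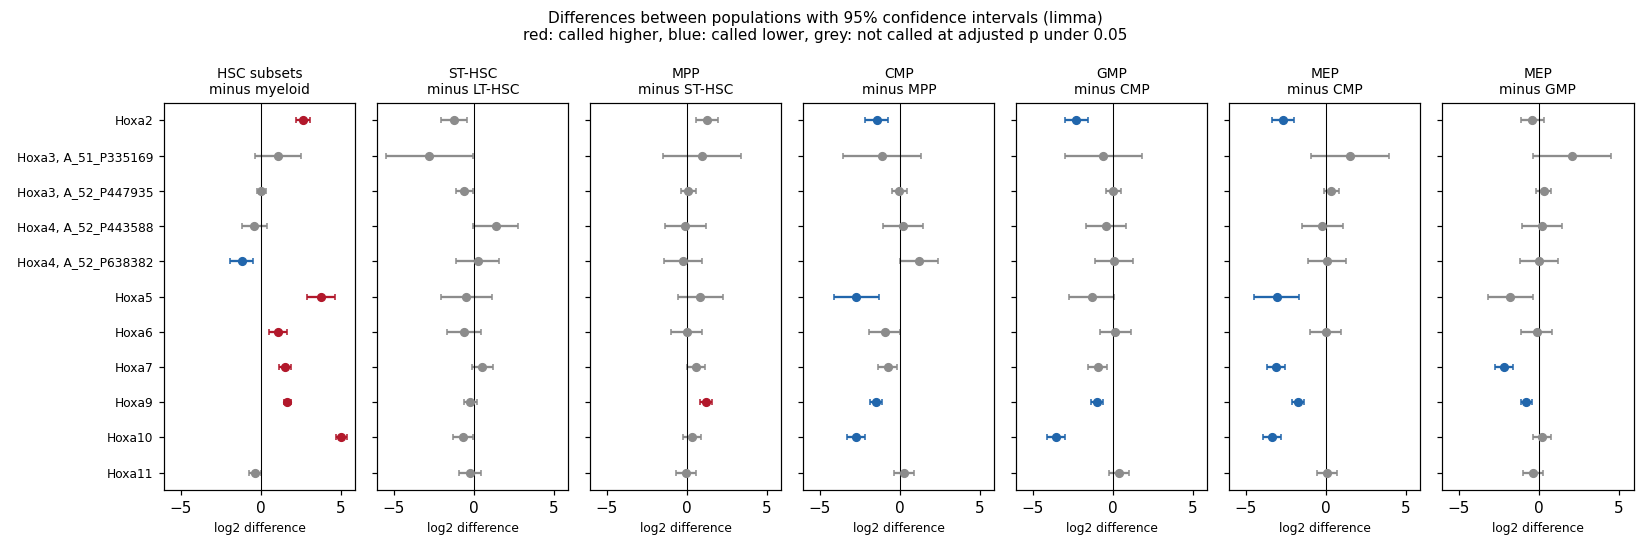
Log2 difference between populations (horizontal axis, first minus second, with 95% confidence intervals from limma) for each Hoxa probe (rows) in 7 comparisons (panels), with red for probes called higher, blue for lower and grey for those not called. Between single populations, Hoxa9 in MPP against ST-HSC is the one red point and all other called points are blue.

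Markers of other cells also differed between the HSC subsets and the myeloid populations, though not in step population by population, and are given for the whole lists. Of the probes for mature cells, 5 of 7 erythroid, 4 of 6 neutrophil, 6 of 7 B cell, 3 of 4 T cell and 3 of 5 macrophage probes were higher in the HSC subsets than in the myeloid populations and none was lower, against 18.2% of all probes higher and 23.1% lower. The normalized intensity of the B cell list, summed over the brightest probe of each gene, ran from 6530.5 to 71901.9 on HSC subset arrays and from 1408.7 to 31234 on myeloid arrays, and Pax5 was not well above background on any myeloid array. By population this sum was 6530.5 to 8797.7 in ST-HSC, below CMP (28261.6 to 31234) and GMP (11553.8 to 14491.5), and 1408.7 to 2973.5 in MEP. The neutrophil list ran from 74924.8 to 564425.1 against 38280.7 to 228931.6, the erythroid list from 7320 to 23749.6 against 479.7 to 58340.3, the T cell list from 69.3 to 339.9 against 42.4 to 111.8, and the macrophage list from 661.9 to 3420.8 against 284.9 to 1867.5. The highest erythroid sum was in MEP (17992.7 to 58340.3). Macrophage sums were higher in GMP (1612.7 to 1867.5) than in LT-HSC (661.9 to 892.9) or MPP (810.9 to 994.1), and those of ST-HSC were 1592.8 to 3420.8. Markers of limb stroma and bone, cells that also use Hoxa genes, were higher for 3 and lower for 1 of 23 probes, with sums of 1072.2 to 3151.1 against 434.9 to 2954.9, and Lepr and Shox2 were well above background on no array. Among the myeloid populations these sums were 1687.8 to 2954.9 in CMP, 573 to 879.5 in GMP and 434.9 to 920.7 in MEP. The endothelial list was higher for 3 and lower for 2 of 8 probes, with sums of 147 to 226.2 against 47.2 to 395.7. Its sums were 337.9 to 395.7 in CMP, 224.5 to 333.5 in GMP and 47.2 to 57.8 in MEP. The part of these cells in the Hoxa differences was not tested.

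The other Hox clusters give the background of the family. By the F-test 7 of 15 Hoxb probes, 1 of 9 Hoxc probes and 2 of 12 Hoxd probes differed, beside 5 of 11 Hoxa probes and 40.6% of all probes. Between HSC subsets and myeloid populations, 8 Hoxb probes were higher and none lower, with a median difference of 1.12, beside 1.09 for Hoxa and -0.0167 for all probes. For Hoxc the median was 0.25, with 1 probe higher and 2 lower, and for Hoxd it was 0.093 with none called. In this comparison 18.2% of all probes were higher and 23.1% lower. Hoxb2 A_52_P15300 was higher by 2.59 (SE 0.20, adjusted p = 6.49e-07) and Hoxb3 A_52_P312467 by 2.42 (SE 0.20, adjusted p = 1.46e-06), while Hoxb4 A_52_P565957 differed by 0.18 (adjusted p = 0.495).

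**Figure D4:**
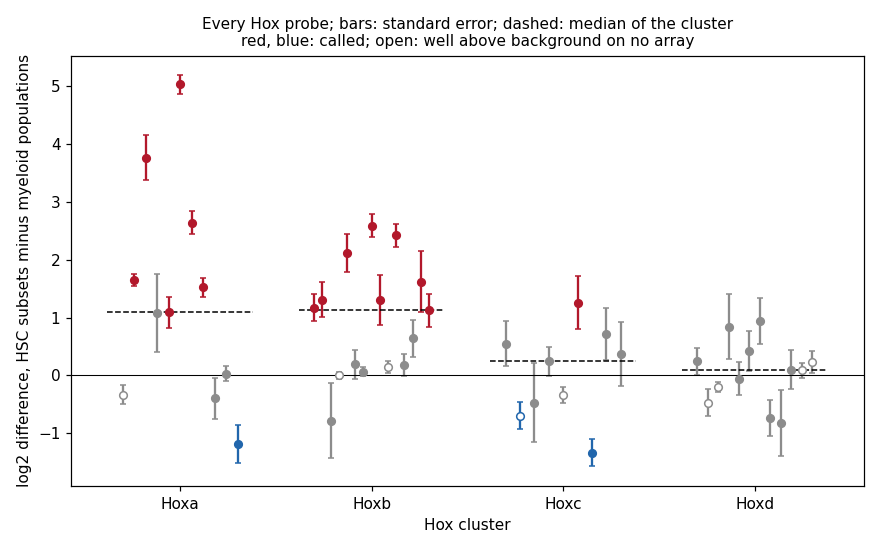
Log2 difference between HSC subsets and myeloid populations (vertical axis, with standard errors) for every probe of the Hoxa, Hoxb, Hoxc and Hoxd clusters (horizontal axis), with red and blue for called probes, open points for probes well above background on no array and dashed lines at cluster medians. Called higher probes number 6 of 11 in Hoxa, 8 of 15 in Hoxb, 1 of 9 in Hoxc and none of 12 in Hoxd, beside 18.2% of all probes.

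TALE cofactors, which bind DNA with Hox proteins, had 10 of 20 probes past the F-test, near the 40.6% of all probes. The Meis1 probe A_52_P26195 had mean log2 levels of 9.19 for LT-HSC, 9.24 for ST-HSC and 9.11 for MPP, against 8.20 for CMP, 6.47 for GMP and 4.57 for MEP, where no array was well above background, and it fell from MPP to CMP and from CMP to both GMP and MEP, with a difference of -0.13 between MPP and ST-HSC. It was higher in HSC subsets by 2.77 (SE 0.14, adjusted p = 1.98e-08), and the second Meis1 probe by 1.87 (adjusted p = 0.000356). Over the list, 7 probes were higher and 4 lower in HSC subsets, against 18.2% and 23.1% of all probes.

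Among the activators that keep Hox genes on, 19 of 32 probes passed the F-test, with 11 higher and 12 lower in HSC subsets, where the shares of all probes were 40.6%, 18.2% and 23.1%. Mll1 was higher by 0.39 (SE 0.10, adjusted p = 0.00578), while called probes of the same gene went in opposite directions for Aff1 and Aff4. Mllt3 A_52_P329934 rose by 2.70 from CMP to MEP, where Hoxa5, Hoxa7, Hoxa9 and Hoxa10 fell. Among Polycomb genes, 16 of 22 probes passed, with 6 higher and 10 lower, read against the same shares. Phc1 A_52_P243553 was higher by 1.11 but Phc1 A_52_P373369 lower (-1.63), and Rnf2 A_51_P382253 was higher by 1.09 and Cbx7 by 1.25 in HSC subsets.

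Genes that Hoxa9 and Meis1 are known to bind or control had 28 of 33 probes past the F-test, with 15 higher and 4 lower in the HSC subsets and a median difference of 0.48, against 40.6%, 18.2% and 23.1% of all probes. From CMP to MEP 15 of the 33 probes fell and 2 rose, against 9.43% and 7.24% of all probes. Flt3, Kit and Cd34 of this list encode antigens by which the populations were sorted, so their differences follow in part from the sort. Erg A_52_P499821 was higher in HSC subsets by 2.24 and fell by 3.54 from CMP to MEP, while Tgm2 A_52_P220879 rose by 2.19 from CMP to MEP. These lists were chosen with earlier results known, and no list test was made.

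The genes whose levels over the 17 arrays were most like those of a member were named as a description, among 22726 probes well above background on at least 9 arrays. For Hoxa9 they were ENSMUST00000100423, Kbtbd11 and Rpl22, with Pearson r of 0.98 each. For Hoxa5 they were Smad4, Sesn3 and Eya1 (0.99, 0.99 and 0.98), and for Hoxa10 they were Sgce, Robo4 and Dusp4 (0.99 each). The 17 arrays hold 6 populations and 3 scanning runs, so these values share the population differences and the runs.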

How the data were processed

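Total RNA of sorted bone marrow populations was hybridized to 17 single-colour Agilent arrays. The deposited scanner files hold intensities per spot that Feature Extraction had background-subtracted (the processed signal). The authors' value table holds log2 values, which per the labels' processing notes involved limma. The paper states quantile normalization of the mRNA data, and any further scaling or centring of this table is not stated. Its rows were matched to spots by order (lowest Spearman correlation with the scanner signal 0.94 per array). Its column medians were 6.4 to 6.42, and it served as an alternative. Log2 processed signals were quantile-normalized over all spots, the 1639 control spots and 1567 outlier spots were left out, and spots of a probe were averaged, with 161 probe values missing. limma 3.58.1 in R 4.3.3 fitted 1 mean per population over 17 arrays. P-values were adjusted by Benjamini-Hochberg over 41174 probes, with a threshold of 0.05, and the fitting was tested on simulated data. HSC subsets against myeloid populations compares the means of 3 population means. The labels do not say that replicates were separate cell preparations in every case, so p-values measure the spread between these arrays, and the number of arrays limits precision. Labels with the same replicate number, or with none, were checked for pairing by the correlation of deviations from population means: all such pairs exceeded 0.1 between ST-HSC and MPP (0.29 to 0.67) and among CMP, GMP and MEP (0.13 to 0.51), where the pairs also share a scanning run, but not between these sets. Every probe of the 9 members was named, with genes of fixed lists as examples. Members and lists were chosen with earlier results of these data known. Alternatives were the 75th percentile scaling, normexp with offset 50, the authors' table, removal of dim probes, scanning run, slide or replicate number as a block, array weights, and leaving out arrays. Genome coordinates of probes are those of the scanner files that name build mm9, since the files of run 1 name mm7. Promoter coordinates are those of RefSeq (GRCm38.p6), and the builds were not mixed. Some list genes and probe sequences are not reported here.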

Additional observations from a re-analysis of the deposited data

How the results depend on the processing

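Under 26 alternative settings, 526 of 570 values of single probes kept their direction and side of the threshold, counted over the 11 probes in HSC subsets against myeloid populations and MEP against GMP, the 2 comparisons followed probe by probe. Part of this count was fixed in advance: for MEP against GMP, leaving out arrays of other populations cannot change the difference, only its adjusted p. Between ST-HSC and LT-HSC, where no probe was called, normexp called 1, and leaving out 1 array gave 0 to 2. The fit with the replicate block called 4, but it drops LT-HSC 2-3 and so sets the dim array alone against ST-HSC, and dropping that array without the block already called 2. From ST-HSC to MPP, with 1 called, normexp, the authors' table, slide as a random block (consensus correlation 0.361) and array weights each called 2, and leaving out 1 array gave 1 to 2. From MPP to CMP, with 4 called, scanning run as a block called 2 and array weights 7, and leaving out 1 array gave 2 to 5. From CMP to GMP, with 3 called, scanning run as a block called 5, and leaving out 1 array gave 3. In the comparisons that the numbers pair (MPP with ST-HSC, and CMP, GMP and MEP with each other) the block called Hoxa7 lower in GMP than in CMP and Hoxa5 lower in MEP than in GMP (adjusted p = 0.0348), and changed no other call. Between HSC subsets and myeloid populations of run 2, which share a scanning run as well as the missing number, r was only -0.055 to 0.07. In HSC subsets against myeloid populations, the fit with the block and without LT-HSC 2-3 gave -1.11 for Hoxa4 A_52_P443588. Leaving out that array alone gave -0.925. The block fit no longer called Hoxa4 A_52_P638382 in that comparison, nor Hoxa2 from MPP to CMP.

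No reversed difference had been called. For HSC subsets against myeloid populations, Hoxa3 A_52_P447935 became -0.0513 with scanning run as a block and -0.149 without the LT-HSC arrays (-0.0911 to 0.157 leaving out 1 array). Hoxa4 A_52_P443588 became 0.572 with the 75th percentile, 0.0164 with normexp and 0.0436 without the LT-HSC arrays (-0.925 to 0.131), and Hoxa11 became 0.127 with the 75th percentile and 0.0228 with scanning run as a block. For MEP against GMP, Hoxa2 became 0.330 with the 75th percentile, and Hoxa4 A_52_P443588 ran from -0.177 to 0.514 leaving out 1 array. Hoxa4 A_52_P638382 became -0.0707 with normexp, -0.0197 with the authors' table, -0.0191 with slide and -0.656 with array weights (-0.398 to 0.518). Hoxa6 became 0.0882 with array weights (-0.426 to 0.0516), Hoxa10 became -0.0584 with normexp and -0.0305 with the authors' table, and Hoxa11 became 0.271 with the 75th percentile, 0.0883 with normexp and 0.0149 with the authors' table (-0.582 to 0.101). The cause was not tested. The 75th percentile moved the median of all probes to 0.313 for HSC subsets against myeloid populations, 0.491 for MEP against CMP and 0.426 for MEP against GMP, from -0.0167, 0.101 and 0.0713. With it, 5 of the 9 genes named as most like Hoxa9, Hoxa5 or Hoxa10 were shared. Signals near background limit Hoxa2, Hoxa3 A_51_P335169, Hoxa4 and Hoxa11, and also Hoxa10 in GMP and MEP and Hoxa5 and Hoxa6 in MEP.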
